A study of Mus musculus with 16 samples.

Results

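Hearts of C57BL/6 mice that had met an aggressor mouse on 3 days and then rested for 1 day were compared with hearts of control mice. The 8 hearts, 4 per group, were chosen by the sample titles from the 16 of a time course of social defeat, a mouse model of traumatic stress. The 3-day group is called T3R1. Its mice sat in a wire mesh box in the cage of the aggressor and were attacked repeatedly in short bouts. Control mice sat in such boxes in a large cage that held no aggressor, and were labelled as belonging to the 2-day arm, so T3R1 has no control of its own duration. A general protocol shared by all samples speaks of 6 hours a day for 5 or 10 days, and the group names were followed here. All 8 hearts were of the same strain with no transgene named, and the labels used here give neither age nor sex. Cy3-labelled RNA of each heart was hybridised to a separate 1-colour Agilent array with probes for messenger RNAs and long noncoding RNAs.

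The cardiac interstitium is a mesh of collagen fibrils that resident fibroblasts secrete, trim and crosslink. Fibroblasts that become activated, for example during repair or under load, make more fibrillar collagen together with crosslinking enzymes and matricellular proteins, which sit in the matrix and signal rather than bear load. Working heart muscle runs mainly on fatty acids burnt in mitochondria, and adult heart muscle cells rarely divide.

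Each array held 55681 probes that were not controls, of which 31390 cleared the background on every array of 1 or more groups of the time course, and these represented 22631 genes or transcripts after 1 probe was kept per name. Levels below are log2 signals with the 75th percentile of each array set to 0, so they compare arrays for 1 probe and not probes with each other. A gene is said to have changed where its adjusted p was under 0.05 (limma with Benjamini-Hochberg adjustment over all 22631, two-sided). Heart muscle markers such as Myh6, Tnnt2 and Tnni3 were well above background on all 8 arrays, and the skeletal muscle myosins Myh4 and Myh1 on none. The skeletal muscle marker Tnnt3, however, was well above background on all 8, and 10 of 15 skeletal muscle genes listed were measured. Both groups lay on 1 slide and were scanned together, but controls occupied slide columns 3 and 4 and T3R1 columns 1 and 2, so position and group cannot be told apart. The 75th percentile of the signal was 551 scanner units on control replicate 1, 258 to 273 on control replicates 2 to 4 and 337 to 408 on the T3R1 arrays.

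The 4 control arrays did not agree equally. Across the genes tested, control replicate 1 had a mean correlation of 0.970 with the other controls and of 0.988 with the T3R1 arrays, whereas control replicates 2, 3 and 4 correlated at 0.976 to 0.977 with T3R1, and at 0.993 with each other. No test is given for these correlations, since genes are not replicates of each other. The T3R1 mean differed at least 2-fold from control replicate 1 in 505 genes and from control replicates 2, 3 and 4 in 1746, 1561 and 1493. The results are therefore given with all 4 controls, and the leading ones also without control replicate 1. The labels give no reason to leave that array out.

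With all 4 controls, 157 genes changed in T3R1 (0.694% of those tested), 114 higher (0.504%) and 43 lower (0.19%). They comprised 134 named genes, 12 long noncoding RNAs and 11 unnamed transcripts. Before adjustment, 5078 of the 22631 genes tested had p under 0.05, and counts of list members at an unadjusted p under 0.05 are to be read beside that share. In 153 of the 157 the 4 T3R1 arrays lay outside the range of the 4 controls, as they did in 7.56% of all genes (3.18% above and 4.39% below). Without control replicate 1 the count was 6667 (29.5%), 2314 higher (10.2%) and 4353 lower (19.2%), and it held all 157 in the same direction. Counts of list members without that array are to be read beside these shares. A fit on the 8 arrays alone, without the spread of the other exposure groups, called 2 genes (0.00884%; 3877 at an unadjusted p under 0.05): Gbp4 and the long noncoding RNA chr5:15146475-15170100_F, which was at 1.37 ± 0.76 and did not pass in the fit of all groups (adjusted p = 0.297). The plot of calls with each array left out shows that control replicate 1 was the array whose removal raised the count. Leaving out control replicate 2, 3 or 4 left 3, 8 and 9 genes, and leaving out T3R1 replicate 1, 2, 3 or 4 left 12, 62, 18 and 98.

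**Figure D1:**
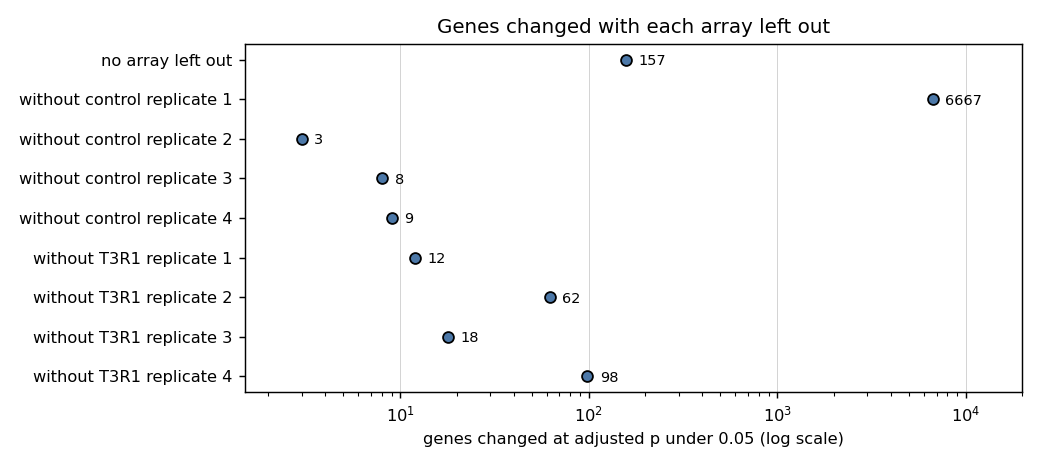
Number of genes changed in T3R1 against control (adjusted p under 0.05, limma; log scale) with no array left out and with each control or T3R1 array left out in turn. The count was 157 with all arrays, 6667 without control replicate 1, and between 3 and 98 without any other array.

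The fibrillar collagens were higher in T3R1. Of 18 collagen genes listed 17 were measured, 8 of them rose and 0 fell, and all 17 had a positive log2 fold change, with a median of 1.47 where the median of all genes was -0.08. Without control replicate 1 all 17 rose and the median was 1.91, that of all genes being -0.13. Col1a1, which encodes the alpha 1 chain of type I collagen, the main load-bearing fibril of the heart, stood at 5.71, 3.30, 3.31 and 3.38 on control replicates 1 to 4 and 6.42, 5.95, 6.45 and 6.08 on T3R1 replicates 1 to 4. Control replicates 2 to 4 thus lay close together, control replicate 1 lay near the T3R1 arrays, and the groups did not overlap. The log2 fold change of Col1a1 was 2.30 ± 0.42 (SE, n = 4 per group; adjusted p = 0.0275), a 4.93-fold difference, and 2.90 without control replicate 1 (adjusted p = 4.9e-06). Col1a2, the partner chain of type I collagen, stood at 7.06, 5.40, 5.36 and 5.50 on control replicates 1 to 4 and 7.89, 7.36, 7.75 and 7.58 on T3R1 replicates 1 to 4, and its log2 fold change was 1.81 ± 0.29 (adjusted p = 0.0231), or 2.23 without control replicate 1. Col3a1, the chain of the finer type III fibrils, stood at 6.15, 3.12, 3.40 and 3.46 on control replicates 1 to 4 and 6.94, 6.34, 6.65 and 6.30 on T3R1 replicates 1 to 4, which gave 2.52 ± 0.50 (adjusted p = 0.0379) and 3.23. Again the lowest T3R1 array lay above control replicate 1 by less than the gap between that array and the other controls.

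The other 5 collagens that rose belong to types V, VI, XV and XVI. Col5a1, a chain of type V collagen, which starts fibril assembly, rose by 2.04 ± 0.36. Col16a1, which associates with fibril surfaces, rose by 1.33 ± 0.23, and the basement-membrane collagen Col15a1 by 1.26 ± 0.24. Col6a1 and Col6a2, chains of the beaded filaments around cells, rose by 1.00 ± 0.19 and 1.09 ± 0.19. The adjusted p values of these 5 collagens, each by its first probe, lay between 0.0238 and 0.0338. A second probe of Col6a2 did not pass, at 0.34 ± 0.13 (adjusted p = 0.166). Further probes of Col16a1 were at 1.26 ± 0.29 and 1.45 ± 0.42 (adjusted p = 0.0601 and 0.0929). Those of Col15a1 were at 1.09 ± 0.24 and 1.11 ± 0.21 (adjusted p = 0.0527 and 0.0337). The 8 collagens passed in 1 to 3 of the 8 fits that each left out 1 array, always including the one without control replicate 1, and the adjusted p rose to as much as 0.155. The probe of Col1a1 lies at chr11:94813115-94813174 of the mm9 build, that of Col1a2 at chr6:4490619-4490678 and that of Col3a1 at chr1:45405589-45405648.

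Promoters are shown here for the genes of the matrix that moved together and, for contrast, for a pair of genes that fell, Gbp5 and Cry1. The RefSeq table for GRCm38.p6 held 5 of 9 genes looked up, and it lists 2 starts for Postn, of which the downstream one is shown. Each line gives the 250 bases before the start, 5′ to 3′ on the strand of the gene, with matches in capitals. Motifs were searched on both strands of all 32851 windows of this length in the table. The TATA box was searched as TATAAA, which 12.4% of the windows held, and the CCAAT box as CCAAT, held by 33.8%. The GC box was taken as GGGCGG (32.7%), the E-box as CACGTG (6.02%) and the core of an interferon-responsive element as GAAANNGAA (7.13%).
Col1a2 (chr6:4505368-4505617, plus strand): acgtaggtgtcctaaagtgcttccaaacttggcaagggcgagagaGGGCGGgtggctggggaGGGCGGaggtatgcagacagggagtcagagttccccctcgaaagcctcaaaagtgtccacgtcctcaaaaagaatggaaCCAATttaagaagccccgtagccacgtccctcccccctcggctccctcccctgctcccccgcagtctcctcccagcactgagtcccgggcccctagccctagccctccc
Col3a1 (chr1:45311288-45311537, plus strand): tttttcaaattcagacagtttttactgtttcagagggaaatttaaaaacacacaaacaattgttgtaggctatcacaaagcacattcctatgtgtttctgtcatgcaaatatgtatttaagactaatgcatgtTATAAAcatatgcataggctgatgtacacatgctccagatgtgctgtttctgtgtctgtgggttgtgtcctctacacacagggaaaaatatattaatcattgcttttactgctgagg
Postn (chr3:54360857-54361106, plus strand): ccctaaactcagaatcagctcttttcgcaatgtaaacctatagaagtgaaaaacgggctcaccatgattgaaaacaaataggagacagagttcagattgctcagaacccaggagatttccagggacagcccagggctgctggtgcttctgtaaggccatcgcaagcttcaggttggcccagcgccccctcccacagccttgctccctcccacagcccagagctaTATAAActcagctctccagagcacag
Gbp5 (chr3:142496684-142496933, plus strand): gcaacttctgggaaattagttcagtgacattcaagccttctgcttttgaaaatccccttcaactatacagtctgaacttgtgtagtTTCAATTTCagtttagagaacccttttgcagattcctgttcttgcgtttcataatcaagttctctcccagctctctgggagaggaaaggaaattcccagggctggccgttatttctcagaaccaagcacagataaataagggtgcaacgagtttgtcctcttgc
Cry1 (chr10:85185055-85185304, minus strand): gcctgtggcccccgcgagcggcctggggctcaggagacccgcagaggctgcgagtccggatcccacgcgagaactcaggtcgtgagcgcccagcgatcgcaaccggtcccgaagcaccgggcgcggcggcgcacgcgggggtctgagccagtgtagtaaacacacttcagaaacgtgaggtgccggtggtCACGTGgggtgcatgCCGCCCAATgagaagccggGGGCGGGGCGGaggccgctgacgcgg
The Col1a2 window held 2 GC boxes, 205 and 188 bases before the start, and a CCAAT box at 109. The Col3a1 window held a TATAAA at 117 bases and the Postn window one at 26. The window of the upstream Postn start, not shown, held a GAAANNGAA match on the opposite strand, 227 bases before that start. In Gbp5 the GAAANNGAA match lay on the opposite strand, 164 bases before the start. Cry1 had an E-box at 60 bases, a CCAAT box at 41 that shared bases with a GC box at 45, and overlapping GC boxes at 26 and 21. Such matches describe the letters of the window and say nothing of which factors bind there.

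Enzymes that mature and crosslink collagen rose with the chains. All 18 genes of that list were measured, 8 rose and 0 fell, and 13 rose and 1 fell without control replicate 1; the median log2 fold change was 0.61, or 0.80 without it. Lox, lysyl oxidase, which joins collagen and elastin molecules covalently, stood at -0.07, -4.16, -4.40 and -4.36 on control replicates 1 to 4 and 1.08, 0.56, 1.00 and 0.08 on T3R1 replicates 1 to 4. On 3 of 4 control arrays it was well above background, and the difference was 3.93 ± 0.83 (adjusted p = 0.0487). A second probe of Lox rose by 3.22 ± 0.66 (adjusted p = 0.0435). Its paralogs Loxl2 and Loxl3 rose by 2.52 ± 0.52 and 1.71 ± 0.36, and for Loxl3 control replicate 1 lay among the T3R1 arrays. Procollagen is trimmed by Bmp1 and Adamts2, which rose by 0.70 ± 0.12 and 1.29 ± 0.26. Pcolce, which enhances the cut by Bmp1 and is not itself a protease, rose by 0.81 ± 0.16. Crtap and P3h3, of the complexes that hydroxylate prolines, rose by 0.50 ± 0.09 and 0.72 ± 0.15. These 8 genes passed in 1 to 3 of the 8 fits that each left out 1 array, always including the one without control replicate 1, and the adjusted p rose to as much as 0.177.

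Matricellular proteins and markers of activated fibroblasts included large differences. All 23 listed genes were measured, 9 rose, 0 fell and the median was 1.16; without control replicate 1, 19 rose and 1 fell, with a median of 1.55. Postn, periostin, a classical product of activated cardiac fibroblasts, stood at 4.71, 0.95, 1.18 and 1.08 on control replicates 1 to 4 and 5.30, 4.70, 5.36 and 4.88 on T3R1 replicates 1 to 4. Control replicate 1 lay at the lower edge of the T3R1 range and the other controls lay far below it. The log2 fold change of Postn was 3.08 ± 0.64 (adjusted p = 0.0443), and 3.99 ± 0.28 without that array (adjusted p = 1.03e-05). Cthrc1, a secreted protein found with activated fibroblasts, stood at 0.57, -6.09, -5.81 and -5.41 on control replicates 1 to 4 and 1.84, 1.04, 1.96 and 1.28 on T3R1 replicates 1 to 4. It was well above background on all 4 T3R1 arrays and on 1 of 4 controls, replicate 1, so its log2 fold change of 5.72 ± 1.21 (adjusted p = 0.0472) rests on dim values, and against control replicates 2 to 4 it was at least 69.3-fold higher. Here and below such a bound sets each dim value to the lowest signal that was well above background on its array. Lrrc15, a surface protein of matrix-making fibroblasts, was measured on the same arrays and was at least 2.13-fold higher than in control replicates 2 to 4 (adjusted p = 0.0245 with all controls).

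Cilp, a cartilage protein that cardiac fibroblasts also secrete, rose by 2.50 ± 0.52, and Mfap5 of the microfibrils by 1.48 ± 0.29. The remaining genes of that list that rose were Mfap4 (1.16 ± 0.22), Fbln2 (1.11 ± 0.20), Thbs2 (0.82 ± 0.14), Sparc (0.80 ± 0.16) and Ccn5 (0.79 ± 0.17). Thbs2, a thrombospondin that binds matrix metalloproteases, differed from the collagens in its controls: it stood at -0.19 on control replicate 1 and -0.33 to -0.18 on the others, against 0.24 to 0.83 in T3R1. Among 17 measured genes of elastic fibres and proteoglycans 4 rose: the microfibril proteins Fbn1 (2.04 ± 0.44) and Mfap2 (1.22 ± 0.17) and the small leucine-rich proteoglycans Bgn (0.92 ± 0.14) and Aspn (1.29 ± 0.26). For Mfap2 the adjusted p was 0.00978 by its first probe, but a second probe was at 0.33 ± 0.17 and did not pass (adjusted p = 0.264). A second probe of Sparc did not pass either, at 0.68 ± 0.25 (adjusted p = 0.15). Mfap2 passed in 7 of the 8 fits that left out 1 array, whereas Postn passed in 1 and Cthrc1 in 1 of them, with adjusted p up to 0.173 and 0.177. Of the other matricellular, elastic fibre and proteoglycan genes named, each passed in 1 to 4 of the 8 fits that each left out 1 array, always including the one without control replicate 1, and the adjusted p rose to as much as 0.177.

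**Figure D2:**
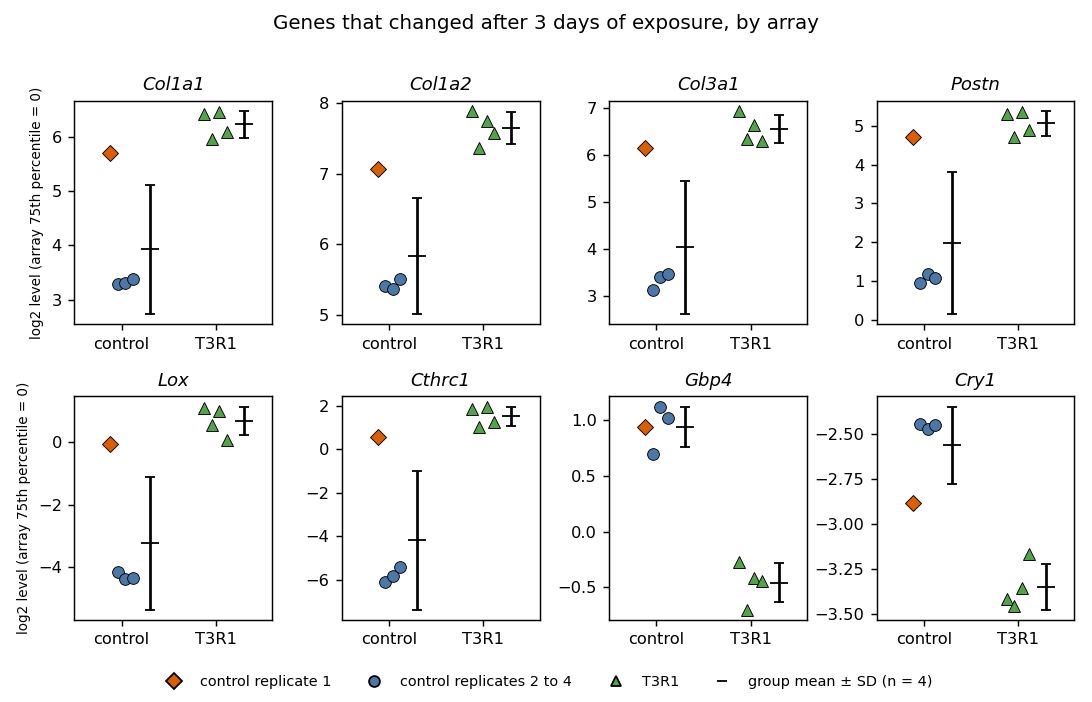
Level of 8 changed genes on each array (log2 signal, 75th percentile of the array at 0; black bars, group mean ± SD, n = 4; each panel has its own axis). In the 6 matrix genes control replicate 1 (diamond) lay near or among the T3R1 arrays, for Cry1 it lay between the groups, and for Gbp4 it lay among the other controls.

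A few genes of matrix turnover and of Wnt binding also rose. Of 15 measured metalloproteases and inhibitors 2 rose: Mmp14, a membrane-bound collagenase, by 1.72 ± 0.26 (adjusted p = 0.0175), and Mmp23 by 0.83 ± 0.17. Timp1, an inhibitor of these enzymes, stood at 5.84, 0.40, 0.19 and 0.20 on control replicates 1 to 4 and 5.80, 5.89, 5.85 and 5.00 on T3R1 replicates 1 to 4, and with overlapping groups its 3.98 ± 1.28 did not pass (adjusted p = 0.104). Its relatives Timp4 and Timp3 lay the other way, at -1.28 and -0.33 with all controls (adjusted p = 0.123 and 0.145). Without control replicate 1, 5 of the 15 rose and 2, Timp4 and Timp3, fell. Sfrp1 and Sfrp2, secreted proteins that bind Wnt ligands, rose by 1.75 ± 0.27 and 1.16 ± 0.24, and the Wnt receptor Fzd2 by 0.91 ± 0.18, 3 of 16 measured genes of that list. A second probe of Fzd2 did not pass, at 0.44 ± 0.19 (adjusted p = 0.1925). Frzb, related to Sfrp1 and Sfrp2, was at 1.53 ± 0.38 (adjusted p = 0.0613). Sfrp5, Wif1 and Dkk3 of that list lay the other way, at -1.11, -0.53 and -0.53 (adjusted p = 0.145, 0.144 and 0.249). In all, 9 of the 16 had a positive and 7 a negative log2 fold change. Without control replicate 1, 5 of the 16 rose and 3, Sfrp5, Wif1 and Dkk3, fell. None of 21 TGF-beta and BMP signalling genes passed by limma, and 10 had an unadjusted p under 0.05; Ltbp2, which resembles the binding proteins of latent TGF-beta, was at 2.51 ± 0.58 (adjusted p = 0.056) and the ligand Tgfb3 at 0.51 ± 0.15 (adjusted p = 0.0868). The 5 genes that rose here with all controls passed, by their first probes, in 1 to 4 of the 8 fits that each left out 1 array. The fit without control replicate 1 was always among these, and the adjusted p rose to as much as 0.169.

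Genes that mark fibroblasts as a cell type did not all rise with the matrix. Of 16 fibroblast identity genes 3 rose, and these were the collagens Col1a1, Col1a2 and Col3a1, with a list median of 0.17. The summed level of the list was 822 to 909 on the controls and 1005 to 1138 on the T3R1 arrays, in units of the 75th percentile of an array. Without these 3 collagens, the other 13 genes summed to 652 on control replicate 1, 761 to 777 on control replicates 2 to 4 and 689 to 714 on the T3R1 arrays, so there the groups overlapped and T3R1 lay below control replicates 2 to 4. In these whole hearts, a change in the number of cells of a type and a change in RNA per cell cannot be told apart. Cspg4, a proteoglycan of pericytes, was the 1 of 13 smooth muscle and pericyte genes that rose (0.50 ± 0.10), and that list summed to 188 to 218 on the controls and 222 to 247 in T3R1. Its median, taken against the mean of the 8 arrays, overlapped between the groups: -0.09 to 0.10 on the controls and -0.05 to 0.12 in T3R1. Adipocyte genes summed to 914 to 1250 on the controls and 627 to 855 in T3R1, a sum lower on every T3R1 array. Yet 0 of 18 measured adipocyte genes passed, and the list median overlapped, at -0.86 to 1.22 on the controls and -0.63 to 0.36 in T3R1. The part of these cell types in the results was not tested. Outside the lists, Crct1, a cornification gene, was well above background on all T3R1 arrays and on control replicate 1 alone among controls, so its log2 fold change of 6.36 ± 1.19 (adjusted p = 0.0315) rests on dim values, and it was at least 56-fold higher than in control replicates 2 to 4. Wfdc18, a small protease inhibitor-like protein, rose by 1.81 ± 0.32 (adjusted p = 0.0254). Crct1, Wfdc18 and Cspg4 passed in 1 to 2 of the 8 fits that each left out 1 array, always including the one without control replicate 1, and the adjusted p rose to as much as 0.14.

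Of the 5 guanylate-binding proteins in the list of interferon-induced genes, Gbp4 and Gbp5 fell. Gbp4, an interferon-induced GTPase of cell-autonomous defence, stood at 0.94, 0.70, 1.12 and 1.02 on control replicates 1 to 4 and -0.28, -0.70, -0.42 and -0.44 on T3R1 replicates 1 to 4. All 4 controls agreed here, replicate 1 included, and every T3R1 array lay below them. The log2 fold change was -1.41 ± 0.17 (adjusted p = 0.00626), 2.65-fold lower than control, and -1.41 without control replicate 1. Gbp4 also passed in each of the 8 fits that left out 1 array (adjusted p up to 0.0437) and on the 8 arrays alone (adjusted p = 0.0458). Gbp5, whose promoter is printed above, stood at 0.21, 0.34, 0.47 and 0.34 on control replicates 1 to 4 and -0.63, -0.998, -0.30 and -0.21 on T3R1 replicates 1 to 4, a difference of -0.87 ± 0.17 (adjusted p = 0.0366). A second probe of Gbp5 lay the other way and did not pass, at 0.18 ± 0.11 (adjusted p = 0.367). Gbp6, Gbp2 and Gbp3 were at -0.53 ± 0.18, -0.36 ± 0.13 and -0.32 ± 0.16 and did not pass (adjusted p = 0.119, 0.131 and 0.27). Gbp5 passed in 2 of the 8 fits that left out 1 array and Isg15 in 1. The interferon list as a whole did not move 1 way: of 26 measured genes Gbp4 and Gbp5 fell, the ubiquitin-like modifier Isg15 rose by 0.91 ± 0.17, and the median was 0.12. Oasl2 was at 0.66 ± 0.16 (adjusted p = 0.0612). Without control replicate 1, 10 of the 26 rose and 4 fell, where 10.2% of all genes rose and 19.2% fell.

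The other named genes that fell included a cystatin, apolipoproteins L and a peroxisomal protein. Cst9, a cystatin-like gene, fell by 1.34 ± 0.26 and Cib3, a calcium-binding protein, by 1.26 ± 0.23 on the log2 scale, with control replicate 1 on the side of the other controls for Cst9 and the lowest of the controls for Cib3. The apolipoprotein L genes Apol10b and Apol7b were at -0.81 ± 0.16 and -0.77 ± 0.13, but their second probes did not pass and were at 0.39 ± 0.27 and -0.07 ± 0.20 (adjusted p = 0.418 and 0.864). Tcim, a regulator of Wnt signalling, was at -0.91 ± 0.19, Hrct1 at -0.81 ± 0.17, the transcription cofactor Dach1 at -0.79 ± 0.15 and Prss51 at -0.77 ± 0.16. Synpo2, an actin-binding protein of the Z-disc, was at -0.76 ± 0.15, the oxygenase Cyp4b1 at -0.71 ± 0.13, Pex11a, which drives the division of peroxisomes, at -0.65 ± 0.13, and Acrbp at -0.65 ± 0.14. Further probes of Synpo2 were at -0.46 ± 0.28 and 0.10 ± 0.16 and did not pass. Adjusted p values of the genes above, each by its first probe, lay between 0.0238 and 0.0497. Thbd, thrombomodulin, an anticoagulant receptor of vessel walls, was at -0.48 ± 0.10 (adjusted p = 0.0497) and was the 1 of 23 haemostasis genes to pass. These 13 genes passed in 1 to 3 of the 8 fits that each left out 1 array, always including the one without control replicate 1, and the adjusted p rose to as much as 0.177.

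Among 18 measured clock genes Cry1 alone passed. This repressor of the circadian loop stood at -2.89, -2.44, -2.47 and -2.45 on control replicates 1 to 4 and -3.42, -3.46, -3.36 and -3.17 on T3R1 replicates 1 to 4, a difference of -0.79 ± 0.15 (adjusted p = 0.0347). It passed in 2 of the 8 fits that left out 1 array. The E-box activator Arntl was at -0.33 ± 0.27 (adjusted p = 0.474), the output factor Dbp at 0.08 ± 0.16 (adjusted p = 0.8) and the repressor Per1 at -0.06 ± 0.22 (adjusted p = 0.892). Of these, Per1 and Dbp changed sign when single arrays were left out. None of 24 glucocorticoid-induced genes passed by limma with all 4 controls, and 9 had an unadjusted p under 0.05, as had 5078 of all 22631 genes. The chaperone Fkbp5 was at 0.06 ± 0.15, the phosphatase Dusp1 at -0.64 ± 0.21 and the metabolic regulator Klf15 at -0.88 ± 0.27 (adjusted p = 0.0956). Irs2, an adaptor of the insulin receptor, was at -1.09 ± 0.29 (adjusted p = 0.0723), with groups that did not overlap.

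Cell division genes stood far above control replicates 2 to 4 and level with control replicate 1. Of 21 measured mitosis and spindle genes 1 passed with all controls, Ube2c, the ubiquitin-conjugating enzyme of the anaphase-promoting complex (2.13 ± 0.44, adjusted p = 0.0443), although the list median was 2.61. Ube2c passed in 1 of the 8 fits that left out 1 array. Without control replicate 1 all 21 rose, with a median of 3.54. Mki67, the proliferation marker Ki-67, stood at 2.64, -0.79, -1.29 and -1.45 on control replicates 1 to 4 and 2.61, 2.38, 2.62 and 2.16 on T3R1 replicates 1 to 4. The T3R1 values lay just below that of control replicate 1 and well above those of the other 3 controls, and the difference of 2.66 ± 0.71 did not pass (adjusted p = 0.0705), whereas without control replicate 1 it was 3.62 ± 0.39 (adjusted p = 8.02e-05). The anaphase activator Cdc20 gave 2.10 with all controls and 2.82 without that array, and the spindle protein Nusap1 2.13 and 2.78. Top2a, which untangles chromosomes, gave 3.10 with all controls, a value that rests on dim signals, since it was well above background on control replicate 1 and on 1 of the other 3 controls. Kif11, a spindle motor, was well above background on control replicate 1 only among the controls and was at least 4.74-fold higher than in replicates 2 to 4. Their adjusted p values with all controls ran from 0.0612 to 0.0853.

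In DNA replication genes and replication-dependent histones the median over the list was also higher on control replicate 1 and on every T3R1 array than on control replicates 2 to 4. None of 21 replication genes passed with all controls by limma, 16 had an unadjusted p under 0.05, and 19 rose without control replicate 1; the median was 0.96 and 1.38. Uhrf1, which maintains DNA methylation during replication, was at 2.16 ± 0.66 (adjusted p = 0.093) and the helicase subunit Mcm5 at 1.51 ± 0.46 (adjusted p = 0.0938). Of 10 measured histone genes 0 passed by limma with all controls, 6 had an unadjusted p under 0.05 and 6 rose without control replicate 1, among them H1f5 (2.26 and 3.01) and H2ac22 (1.33 and 1.82). Averaged against the mean of the 8 arrays, the median of the mitosis list lay at 1.70 on control replicate 1, -2.56 to -2.02 on control replicates 2 to 4 and 1.06 to 1.56 on the T3R1 arrays.

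Macrophage genes and inflammatory mediators differed from control replicates 2 to 4 in the same way. Of 22 measured macrophage and monocyte genes 0 passed by limma with all controls, 15 had an unadjusted p under 0.05, and 15 rose and 1 fell without control replicate 1. The summed level of the list was 188 on control replicate 1, 102 to 113 on the other controls and 165 to 198 in T3R1. Cd68, a lysosomal protein of macrophages, stood at 3.52, 1.62, 1.65 and 1.55 on control replicates 1 to 4 and 3.64, 3.46, 3.63 and 3.24 on T3R1 replicates 1 to 4. Its difference was 1.41 ± 0.35 (adjusted p = 0.064), or 1.89 without control replicate 1. Ms4a7 was at 1.69 ± 0.37 (adjusted p = 0.051) and the complement chain C1qc at 0.64 ± 0.16 (adjusted p = 0.0612). Timd4, a receptor of long-resident macrophages, was the member that fell without control replicate 1: it stood at -1.52, -1.92, -1.94 and -2.16 on control replicates 1 to 4 and -2.88, -2.80, -3.19 and -2.57 on T3R1 replicates 1 to 4, all 4 T3R1 arrays below all controls (-0.98 ± 0.22, adjusted p = 0.0529).

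Cxcl10, an interferon-induced chemokine, was at 2.94 ± 0.65 (adjusted p = 0.054) with groups that did not overlap, and the monocyte attractant Ccl8 at 2.43 ± 0.60. Ccl11, eotaxin, lay the other way: -0.86 on control replicate 1, -1.35 to -0.90 on the other controls and -2.03 to -1.55 in T3R1 (-0.70 ± 0.16, adjusted p = 0.0552). Of 23 measured chemokines 0 passed by limma with all controls, 8 had an unadjusted p under 0.05, and 9 rose and 2 fell without control replicate 1. The acute-phase genes Lcn2 (lipocalin 2) and Serpina3n stood at 2.76 ± 0.71 and 2.77 ± 0.69 (adjusted p = 0.0657 and 0.0631), or 3.57 and 3.51 without control replicate 1. They had the smallest p of their list. Of its 18 measured cytokine and acute-phase genes 0 passed by limma with all controls and 5 had an unadjusted p under 0.05. Without control replicate 1, 8 of the 18 rose and 0 fell. The neutrophil calprotectin subunit S100a8 was at 0.28 ± 0.82 and changed sign when single arrays were left out. Neutrophil markers summed to 62.8 on control replicate 1, 47.3 to 52 on the other controls and 61.4 to 84.7 in T3R1.

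Several further genes differed most once control replicate 1 was left out. Sprr1a, a cornification gene that stressed heart muscle also makes, stood at 3.15, -3.50, -3.32 and -3.30 on control replicates 1 to 4 and 4.53, 3.37, 4.69 and 3.98 on T3R1 replicates 1 to 4. The groups did not overlap, yet control replicate 1 lay closer to T3R1 than to the other controls, and the difference went from 5.88 ± 1.37 (adjusted p = 0.0588) to 7.51 ± 0.99 without it (adjusted p = 0.000283). Tnc (tenascin C), Spp1 (osteopontin), Arg1 (arginase 1) and Pbk, a mitotic kinase, were each well above background on control replicate 1 only among controls and on all T3R1 arrays. Against control replicates 2 to 4 they were at least 25.2, 61.9, 16.4 and 14.8-fold higher. The protease inhibitor gene Serpina3i and the cyclin Ccnb1, well above background on control replicate 1 and on 1 of the other 3 controls, were at 4.25 ± 1.10 and 3.70 ± 1.01 with all controls, values that rest on dim signals. With all controls the adjusted p of these 6 genes ran from 0.0665 to 0.148. At the other end, Cngb3, Ano10, Lgals4, Acsm5 and Clec18a were at -1.47 to -1.30 with all controls and did not pass, and without control replicate 1 they fell by 1.82 to 2.03 on the log2 scale.

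Many heart muscle, mitochondrial and vessel genes were lower than in control replicates 2 to 4, though no gene of these lists passed with all 4 controls. Of 31 measured subunits of oxidative phosphorylation all 31 had a negative log2 fold change (median -0.34), 0 passed by limma, 13 had an unadjusted p under 0.05, and 30 fell without control replicate 1 (median -0.59). Cox7a1, a muscle form of a cytochrome c oxidase subunit, stood at 8.83, 10.09, 9.92 and 9.97 on control replicates 1 to 4 and 8.90, 9.16, 8.96 and 9.28 on T3R1 replicates 1 to 4. Control replicate 1 was the lowest of all 8 arrays, and the difference was -0.63 ± 0.21 (adjusted p = 0.12), or -0.92 without it. The complex I subunit Ndufa1 and the ATP synthase subunit Atp5c1 were at -0.51 ± 0.16 and -0.58 ± 0.19. Of 28 fatty acid genes 0 passed by limma, 18 had an unadjusted p under 0.05 and 24 fell without control replicate 1, the median being -0.47 and -0.70. Hadhb of the mitochondrial trifunctional protein stood at 7.60, 8.39, 8.45 and 8.42 on control replicates 1 to 4 and 7.54, 7.80, 7.57 and 7.72 on T3R1 replicates 1 to 4, a difference of -0.56 ± 0.17 (adjusted p = 0.0904). Decr1, Ech1 and the thioesterase Acot2 were at -0.56 ± 0.15, -0.72 ± 0.22 and -0.59 ± 0.17. The peroxisome proliferator-responsive genes Pdk4, Angptl4 and Ucp3 were at -0.84 ± 0.41, -0.58 ± 0.61 and -0.05 ± 0.09, with adjusted p from 0.243 to 0.811; Ucp3 changed sign with other scalings.

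Cardiomyocyte identity genes summed to 7298 on control replicate 1, 13484 to 15113 on the other controls and 9282 to 11965 in T3R1; of the 26 measured, 0 passed by limma with all controls, 1 had an unadjusted p under 0.05 and 17 fell without control replicate 1. Troponin I, Tnni3, was at -0.43 ± 0.21 (adjusted p = 0.252) and -0.70 ± 0.13 without that array (adjusted p = 0.0019), and phospholamban, Pln, at -0.38 ± 0.17 and -0.49. Endothelial genes summed to 367 on control replicate 1, 428 to 471 on the other controls and 298 to 328 in T3R1. By this sum the T3R1 arrays lay below all 4 controls. The list median, taken against the mean of all control and T3R1 arrays, overlapped between the groups. It was -0.14 on control replicate 1, 0.15 to 0.33 on the other controls and -0.22 to -0.04 in T3R1. Fabp4 of this list is also in the adipocyte list, and its share of the sum was not tested. None of 24 endothelial genes passed by limma with all controls, 13 had an unadjusted p under 0.05 and 11 fell without control replicate 1. Robo4, an endothelial guidance receptor, was at -0.52 ± 0.12 (adjusted p = 0.0575), Egfl7 at -0.48 ± 0.12, the VEGF receptor Flt1 at -0.43 ± 0.12 and Adgrl4 at -0.48 ± 0.14.

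Few genes of the fetal and stress program of heart muscle passed. Of 23 measured genes 2 rose: Mybpc2, a fast-type myosin-binding protein, stood at 2.12, 1.65, 1.75 and 1.77 on control replicates 1 to 4 and 3.26, 3.04, 2.94 and 2.95 on T3R1 replicates 1 to 4 (1.22 ± 0.25, adjusted p = 0.0392), and Uchl1, a deubiquitinase that is also 1 of 16 measured nerve and Schwann cell genes, rose by 1.05 ± 0.22 (adjusted p = 0.0449). Both passed in 1 of the 8 fits that each left out 1 array, always including the one without control replicate 1, and the adjusted p rose to as much as 0.173. The natriuretic peptide genes did not pass, with Nppa at 0.12 ± 0.16 (adjusted p = 0.701) and Nppb at 0.39 ± 0.49 (adjusted p = 0.668). The fetal myosin Myh7 was at 1.01 ± 0.60 and passed without control replicate 1 (1.56 ± 0.55, adjusted p = 0.0481), the adult myosin Myh6 at -0.22 ± 0.32 and skeletal actin Acta1 at 0.82 ± 0.57. Nppa and Myh6 changed sign under some settings. Hspa1a, a heat shock chaperone, was at 0.20 ± 0.71 with control arrays spread over -0.99 to 1.55, and the haemoglobin chain Hba-a1 at 0.01 ± 0.31. Ucp1, of brown fat, spread over 1.71 to 5.51 on the controls and 2.24 to 5.07 in T3R1. Crhbp, which binds corticotropin-releasing hormone, was at -0.50 ± 0.31 (adjusted p = 0.351). Of 13 imprinted and fetal growth genes 0 passed by limma and 5 had an unadjusted p under 0.05: Ndn and Mest were at 0.56 ± 0.13 and 0.62 ± 0.16, with groups that did not overlap, and Igf2 at -0.13 ± 0.26. The detoxifying enzyme Cyp1a1 was at -1.11 ± 0.81 (adjusted p = 0.425), and passed at -1.98 ± 0.65 without control replicate 1 (adjusted p = 0.036).

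**Figure D3:**
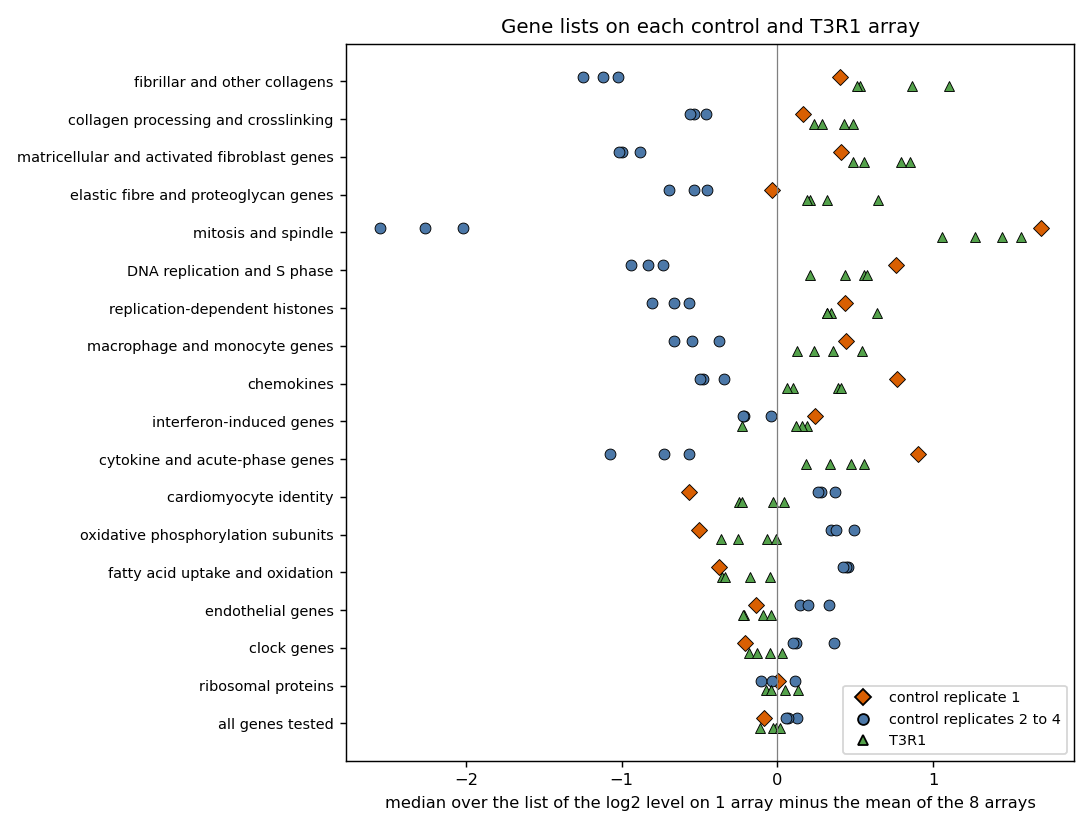
Median over each gene list of the log2 level on 1 array minus the mean of the 8 arrays, for 17 gene lists and for all genes tested. Control replicate 1 (diamond) lay beside the T3R1 arrays (triangles) or beyond them in most lists shown, and control replicates 2 to 4 (circles) lay apart, as in mitosis and spindle, at -2.56 to -2.02 against 1.06 to 1.56 in T3R1.

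How far control replicate 1 lay from the other controls was measured on genes chosen without it. For each of the 6667 genes that changed without control replicate 1, its position was set on a scale where the mean of control replicates 2 to 4 is 0% and the T3R1 mean is 100%. The median position was 116% (quartiles 85.8% and 148%), and 6087 of the 6667 (91.3%) lay nearer to T3R1. Higher genes had a median position of 108% and lower genes of 122%. By gene group, over the members called, the median position was 80% over 17 collagens, 89.5% over 20 matricellular genes, 108% over 21 mitosis genes, 107% over 16 macrophage genes, 125% over 24 fatty acid genes, 152% over 30 oxidative phosphorylation subunits and 181% over 17 cardiomyocyte genes. Control replicate 1 thus lay short of the T3R1 mean in most matrix genes and beyond it in most muscle genes.

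**Figure D4:**
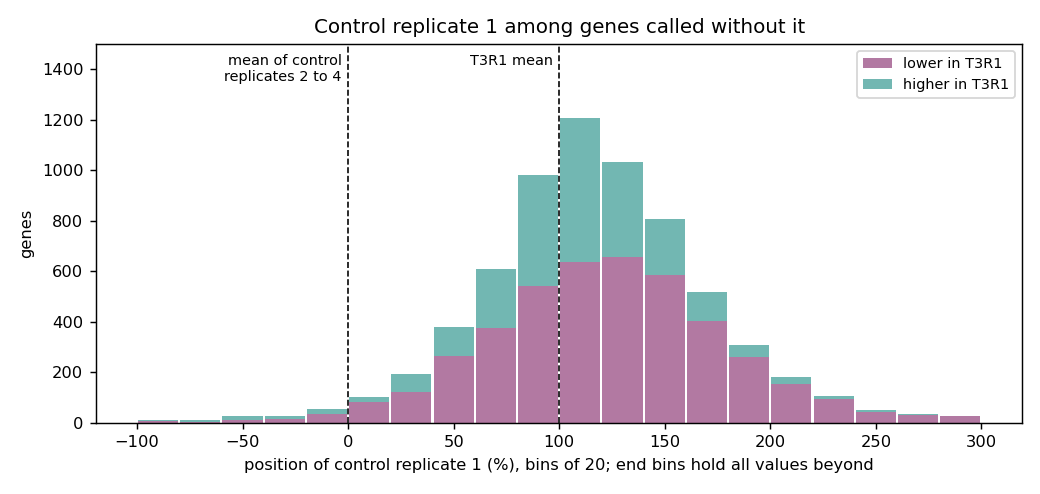
Number of genes (vertical axis) by the position of control replicate 1 between the mean of control replicates 2 to 4 (0%) and the T3R1 mean (100%), for the 6667 genes called without that array, stacked by direction. The bulk lies around or beyond 100%, with a median of 116%.

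The 157 genes that passed with all controls had to differ with control replicate 1 counted among the controls, and in them that array lay at a median position of 55.8% in the 114 higher and 30.3% in the 43 lower genes. Positions near 0% belonged to Gbp4 (0.187%), Thbs2 (9.26%), Cst9 (15.2%) and Gbp5 (19.3%), and Apol10b (-42.7%) and Prss51 (-112%) lay on the far side of the other controls. For these genes all 4 controls stood apart from T3R1. Postn (91.2%), Col3a1 (87.4%), Fbn1 (87.4%) and Cthrc1 (86.9%) lay at the other end among genes that passed. Markers of other tissues also set control replicate 1 apart: B cell genes summed to 15.3 there against 3.5 to 5.79 on the other controls and 4.36 to 8.3 in T3R1, and the 4 measured lung genes to 74 against 10.1 to 11.7, with 9.32 to 73 in T3R1, the highest on T3R1 replicate 1. The lung surfactant genes Sftpc and Sftpb were well above background on 1 and 2 of the 8 arrays. Haemoglobin and erythroid genes summed to 1432 on it against 2939 to 3184 on the other controls and 2250 to 3312 in T3R1, where T3R1 overlapped control replicates 2 to 4 and not control replicate 1. Their part in the results was not tested.

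**Figure D5:**
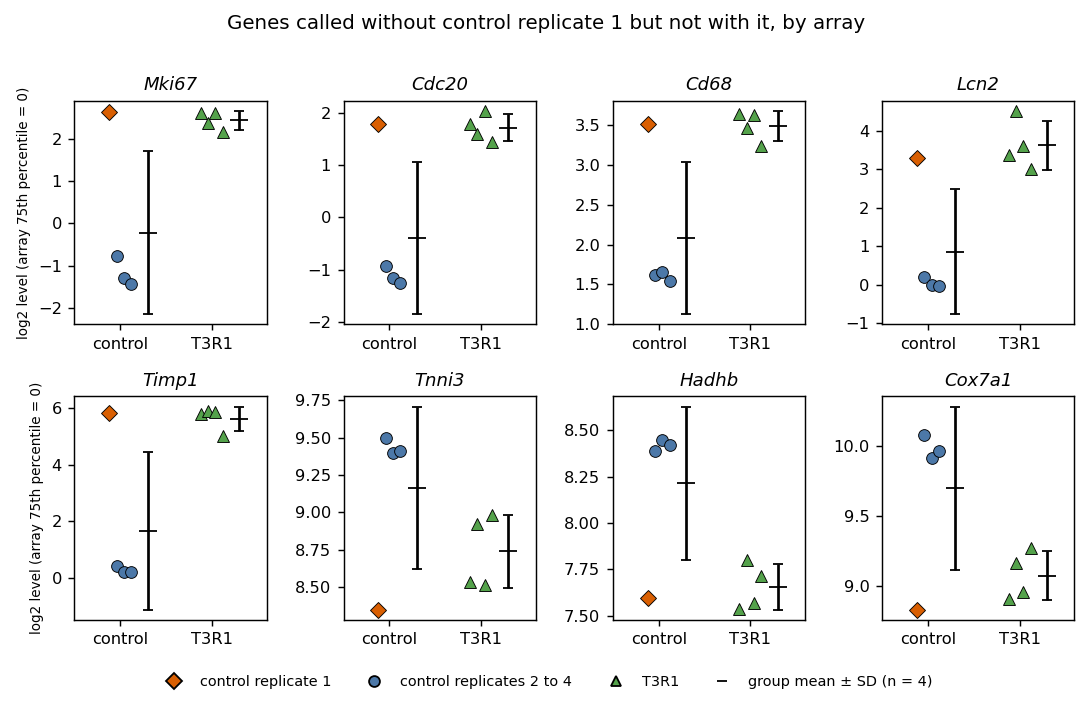
Level of 8 genes on each array (log2 signal, 75th percentile of the array at 0; black bars, group mean ± SD, n = 4; each panel has its own axis), chosen to show division, macrophage, acute-phase, muscle and mitochondrial genes. All 8 were called without control replicate 1 and not with it, a choice that favours genes in which that array lies near T3R1. In each, control replicate 1 (diamond) lay among or beyond the T3R1 values and away from control replicates 2 to 4. For Mki67 it stood at 2.64 against -1.45 to -0.79.

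Of 3036 long noncoding RNA probes tested 12 changed (0.395%). The upper 2 rose most and the lower 2 fell most; they are shown by their probe sequences, printed 5′ to 3′ as in the array design, since the array names these transcripts by position alone (mm9 build, F or R for the strand).
chr1:93812836-93816128_F: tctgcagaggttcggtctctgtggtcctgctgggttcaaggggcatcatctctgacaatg
chr3:58496493-58601253_F: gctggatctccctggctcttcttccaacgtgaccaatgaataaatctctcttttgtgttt
chr1:52507332-52514490_R: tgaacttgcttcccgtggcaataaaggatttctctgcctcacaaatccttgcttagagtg
chr2:129416848-129417413_R: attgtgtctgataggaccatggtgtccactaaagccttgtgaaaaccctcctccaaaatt
The upper transcript of chromosome 1 stood at 1.02, -0.34, -0.26 and -0.09 on control replicates 1 to 4 and 2.08, 1.60, 1.72 and 1.90 on T3R1 replicates 1 to 4, a rise of 1.75 ± 0.23 (adjusted p = 0.00971). The transcript of chromosome 3 stood at -0.89, -1.59, -1.24 and -1.66 on control replicates 1 to 4 and 0.43, -0.41, 0.24 and -0.14 on T3R1 replicates 1 to 4, a rise of 1.37 ± 0.23 (adjusted p = 0.0231). In both, control replicate 1 lay between the other controls and T3R1. The lower transcript of chromosome 1 stood at 2.57, 2.44, 2.33 and 2.36 on control replicates 1 to 4 and 1.49, 1.90, 1.83 and 1.66 on T3R1 replicates 1 to 4, a difference of -0.70 ± 0.09 (adjusted p = 0.00971), and the transcript of chromosome 2 at -3.22 on control replicate 1, -3.43 to -3.11 on the other controls and -4.61 to -3.90 in T3R1, a difference of -0.999 ± 0.18 (adjusted p = 0.0268). For these last transcripts, all 4 controls lay together. Both transcripts of chromosome 1 passed in 7 of the 8 fits that left out 1 array, that of chromosome 3 in 3 and that of chromosome 2 in 3. What lies around these positions in the gene annotation was not analysed here.

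Other probes of the same genes gave a check within the arrays. Of the 134 named genes that changed, 41 had 49 further probes above background: 43 had the same sign, and 11 passed, none of these against the direction of the first probe, where 209 of 31390 probes passed on their own. The hearts of the shorter exposures lay on the other slide and share these controls, and for them the slide cannot be told apart from the exposure. Their collagen medians against the same controls were -0.10 after 1 day and 0.49 after 2 days, beside 1.47 after 3 days.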

How the data were processed

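RNA of 16 individual mouse hearts, 4 per group, was read on 1-colour Agilent arrays. Scanner images were quantified with Feature Extraction 10.7.3.1, per the file headers, and its processed signal, an intensity on a linear scale with the background subtracted, is the deposited value used here; the probe design gives mm9 positions. The deposited spot flags, which are other values of 0 or 1, marked spots above background and outliers. The authors' deposited table of log2 values, whose centring is not stated in the sources used here, served as an alternative. Log2 signals were set to the 75th percentile of each array, and outlier spots (95 to 288 per array) were left out. Spots of a probe were averaged, after which 102 values were missing among the features tested. Of 55681 probes, the 31390 that cleared the background on every array of 1 or more groups were kept. The probe with the highest mean stood for its symbol, which gave 22631 features (16433 named genes, 3036 long noncoding RNAs and 3162 unnamed transcripts).

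All 16 arrays were fitted with limma 3.58.1 in R 4.3.3 as 4 groups without covariates (12 residual degrees of freedom, prior 2.26), and p values were adjusted by Benjamini-Hochberg at 0.05. They measure the spread between these hearts, and the number of arrays limits the precision. Exact permutation of 4 against 4 arrays cannot give a two-sided p below 0.0286. The procedure was also run on simulated data, with independent normal values and no control array set apart. That run therefore says nothing about the effect of an array such as control replicate 1. Members, the 51 gene lists and the tests were chosen with earlier results of these data known. Named genes were the 15 highest and 15 lowest fold changes among named protein-coding genes that passed without overlap between groups, the 10 highest and 10 lowest without control replicate 1, the 4 members of each described list with the smallest p, 25 fixed genes, and the 2 highest and 2 lowest long noncoding RNAs. Other list members that passed, Gbp2, Gbp3 and Gbp6, the genes under other observations and chr5:15146475-15170100_F were named after their values were seen. A gene that this rule names is not reported here. A bound set a probe not above background to the lowest signal that was. Alternatives changed the background correction (normexp, offset 50), scaling, filter, variance model, arrays and threshold.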

Additional observations from a re-analysis of the deposited data

Results flagged for a closer look

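Within each group of 4 arrays, an array was singled out where its gap to the nearest other array took up more of the group's whole range than Dixon's 95% critical value. Chance singles out about 1 in 20 groups. The lists and named genes were chosen with results of these data known, and genes on an array are not independent. Their counts below therefore cannot be read against that share, and no count over all genes tested was made. In the control group every such case was control replicate 1. Its share of the range was 0.95 for the 75th percentile of the signal, 0.94 for the median of the signal, 0.94 for the mean correlation with the controls and 0.88 for the mean correlation with T3R1. It was singled out in 14 of 51 list medians. The share was 0.85 for oxidative phosphorylation subunits. For fibrillar and other collagens and collagen processing and crosslinking it came to 0.86. A share of 0.87 was found for mitosis and spindle and glucose transport and glycolysis. In cardiomyocyte identity, DNA replication and S phase, Nrf2 antioxidant genes, chemokines and erythroid and haemoglobin genes it amounted to 0.88. The share was 0.89 for fibroblast identity. For matricellular and activated fibroblast genes it came to 0.90. A share of 0.92 was found for lung genes. In fatty acid uptake and oxidation it amounted to 0.96.

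Among the 146 genes named, some of them chosen by their change without control replicate 1, that array was singled out in 54. The share was 0.83 for Tcim and Synpo2. For Bmp1, Mki67 and Oasl2 it came to 0.84. A share of 0.85 was found for Mcm5 and Spp1. In Mmp23, Nusap1, Arg1, Cspg4 and Ptprb it amounted to 0.86. The share was 0.87 for Loxl3, Cox7a1 and Cngb3. For Ube2c, H2ac22, Hba-a1 and Acsm5 it came to 0.88. A share of 0.89 was found for Col3a1, Mfap5, Tgfb3, Lrrc15, Cdc20, Cyp1a1 and Gpnmb. In Cthrc1, Pex11a, Decr1 and Igf2 it amounted to 0.90. The share was 0.91 for Col1a2. For Loxl2, Adamts2, Fbn1, Fzd2 and Tnni3 it came to 0.92. A share of 0.93 was found for Col6a1, Lcn2, Hadhb and Ech1. In Lox, Postn and Cry1 it amounted to 0.94. The share was 0.95 for Kif11, Cd68 and Ccl8. For Col6a2, Timp1 and Crct1 it came to 0.96. A share of 0.97 was found for Col1a1, Col5a1, Ms4a7, Tnc and Sprr1a. The reason that this array stands apart was not tested.

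In the T3R1 group the arrays singled out varied. T3R1 replicate 1 was singled out with shares of 0.93 for the list of TGF-beta and BMP signalling, 0.85 for the list of lung genes, 0.84 for Col6a1, 0.88 for Col6a2, 0.94 for Bgn and 0.97 for Angptl4. T3R1 replicate 2 was singled out with shares of 0.91 for the list of MHC class II presentation, 0.99 for Gbp3, 0.91 for Oasl2, 0.83 for Acta1 and 0.87 for Ptn. T3R1 replicate 3 was singled out with shares of 0.89 for the median of the signal, 0.92 for the list of replication-dependent histones, 0.93 for the list of glucocorticoid-induced genes and 0.88 for Crct1. T3R1 replicate 4 was singled out with shares of 0.90 for Timp1, 0.84 for Top2a, 0.91 for Uhrf1, 0.92 for Mcm5, 0.84 for Apol10b, 0.88 for Arg1, 0.88 for Ano10 and 0.92 for Cspg4.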

How the results depend on the processing

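With all controls, 157 genes changed (114 higher, 43 lower, 72.6% higher). The counts of changed, higher and lower genes were 300, 204 and 96 with normexp, 355, 237 and 118 from the authors' deposited values, 480, 285 and 195 with an intensity trend and robust prior, 7632, 2710 and 4922 (35.5% higher) with array weights, and 1518, 777 and 741 at an adjusted p under 0.10. They were 21, 13 and 8 (61.9% higher) with each array set to its median, 17, 13 and 4 without the filter on dim probes, and 2, 1 and 1 on the 8 arrays alone. Genes that fell numbered 66 with the filter on control and T3R1 only and 28 at a minimum of 1.5-fold. Quantile normalization gave 120 genes and every probe on its own 209. Leaving out each array in turn gave 3 to 6667 changed, 2 to 2314 higher and 1 to 4353 lower genes. Of the 157, normexp kept 139, quantile normalization 107, the authors' values 147, median scaling 21 and the 8 arrays alone 1. Of 70 named genes that passed, median scaling kept 15, the block by replicate number 19 and array weights 70, and none of these 70 changed direction under any of the 18 settings.

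Without control replicate 1, 6667 genes changed (34.7% higher). Each array set to its median gave 3000, 1349 and 1651 (45% higher), normexp 7052 lower genes (24.7% higher), and the authors' values a split of 45.6% higher. Leaving out 1 further array, chosen after seeing the data, gave 4389 (without control replicate 2) to 7271 changed, 1747 to 2381 higher and 2586 (without control replicate 2) to 4890 lower genes. Replicate numbers paired the samples only in part: deviations of same-numbered samples correlated at 0.392, 0.142, 0.0217 and 0.306, and 2 of 4 correlated best with their own number. These were control replicates 1 and 4, for which other numbers reached at most 0.0243 and 0.0114. In both groups replicates 1 and 3 lay in slide row 2 and replicates 2 and 4 in row 1, so replicate number and slide row cannot be told apart. The part of slide row was not tested. Fitted with the replicate number as a block, 42 genes changed, 28 higher and 14 lower, and 6173 without control replicate 1.

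Genes that did not pass and changed sign in log2 fold change were Myh6 at 0.012 from the deposited values and -0.55 to 0.034 with 1 array left out (turned by T3R1 replicate 3). The same held for Nppa at -0.0027 with array weights and -0.021 to 0.18 with 1 array left out (turned by control replicate 1). Sign also changed for Ucp3 at 0.0053 with quantile normalization, 0.011 from the deposited values and -0.11 to 0.019 with 1 array left out (turned by control replicate 4). The same held for Per1 at 0.0080 from the deposited values and -0.19 to 0.049 with 1 array left out (turned by control replicate 2, control replicate 4 and T3R1 replicate 4). Sign also changed for Dbp at -0.036 to 0.21 with 1 array left out (turned by control replicate 4). The same held for Fkbp5 at -0.072 to 0.14 with 1 array left out (turned by control replicate 3 and T3R1 replicate 3). Sign also changed for Hspa1a at -0.18 to 0.75 with 1 array left out (turned by control replicate 1, control replicate 4 and T3R1 replicate 1). The same held for Hba-a1 at -0.021 with each array set to its median, -0.21 with array weights and -0.27 to 0.13 with 1 array left out (turned by control replicate 1, T3R1 replicate 1 and T3R1 replicate 2). Sign also changed for Ucp1 at 0.44 with array weights and -0.74 to 0.62 with 1 array left out (turned by control replicate 1, control replicate 4, T3R1 replicate 2, T3R1 replicate 3 and T3R1 replicate 4). The same held for S100a8 at -0.24 to 0.73 with 1 array left out (turned by control replicate 2 and T3R1 replicate 2). Sign also changed for Igf2 at -0.47 to 0.018 with 1 array left out (turned by control replicate 2). The cause of these changes was not tested. The agreement of the controls, the slide columns and the missing control of matching duration limit every comparison, and the number of calls turns on control replicate 1.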

Other observations

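Genes outside the lists were looked at after their values were seen. For a few of them all 4 controls, replicate 1 included, lay together and apart from T3R1. The transcript 1700120C14Rik stood at 1.09, 1.19, 1.12 and 1.10 on control replicates 1 to 4 and 1.80, 1.79, 1.72 and 1.89 on T3R1 replicates 1 to 4, a rise of 0.67 ± 0.07 with the smallest adjusted p of all genes tested (0.00212). Maged2, of the melanoma antigen family, stood at 2.99, 3.02, 2.68 and 2.85 on control replicates 1 to 4 and 3.59, 3.59, 3.64 and 3.63 on T3R1 replicates 1 to 4, and rose by 0.73 ± 0.09 (adjusted p = 0.00626). With Gbp4, they were the 3 named genes that passed in each of the 8 fits that left out 1 array; only Gbp4 also passed under all 18 settings, while the other two did not pass with each array set to its median or on the 8 arrays alone (adjusted p up to 0.12 and 0.16).

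AW112010, a transcript known to be induced by interferon in immune cells, stood at 2.62, 2.85, 2.94 and 2.84 on control replicates 1 to 4 and 1.95, 1.83, 1.93 and 2.20 on T3R1 replicates 1 to 4, and fell by 0.84 ± 0.11 (adjusted p = 0.00971; 7 of 8 fits that left out 1 array). Irf1, a transcription factor of the interferon response, stood at 3.03, 3.09, 2.95 and 3.01 on control replicates 1 to 4 and 2.71, 2.57, 2.75 and 2.62 on T3R1 replicates 1 to 4, and fell by 0.35 ± 0.07 (adjusted p = 0.0423; 1 of 8). Both lie on the side of Gbp4 and Gbp5, but they were picked with those results in view and are not independent of them.

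Gpnmb, a glycoprotein of macrophages that take up debris, rose by 1.63 ± 0.24 (adjusted p = 0.0171), with -0.95 on control replicate 1, -2.09 to -1.96 on the other controls and -0.71 to 0.23 in T3R1. The growth factor pleiotrophin, Ptn, rose by 1.30 ± 0.24 and Cd248, a receptor of pericytes and fibroblasts, by 0.74 ± 0.13 (adjusted p = 0.0315 and 0.0268). Ptprb, the vascular endothelial tyrosine phosphatase, fell by 0.56 ± 0.11 (adjusted p = 0.0338), on the side of the endothelial marker sum. The median of the endothelial list overlapped between the groups. These 4 genes passed in 2 to 3 of the 8 fits that left out 1 array.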
